A study of Mus musculus with 24 samples.

Results

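The 10 genes described here are core members of the BCL2 family, whose proteins hold back or set off the mitochondrial path to apoptosis. They were picked by name, with earlier results of these data known, and are 10 of the 21965 genes listed. Each is the row of the count table that carries its symbol. Bcl2, Bcl2l1 (the gene of BCL-xL) and Mcl1 are anti-apoptotic, Bax and Bak1 encode the effectors, and Bid, Bcl2l11 (BIM), Bbc3 (PUMA), Pmaip1 (NOXA) and Hrk belong to the BH3-only class. All 10 passed the filter of at least 10 counts summed over the libraries.

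The counts come from spinal cord of female OL-Ribotag mice, in which a promoter active in oligodendrocytes drives a Cre that needs tamoxifen, and Cre puts an HA tag on the ribosomal protein RPL22. Naive and injured mice alike carried both alleles and received tamoxifen at 1 mg per day for 8 days from an age of 6 weeks. Injured mice had a contusion of 50 kdyn at a thoracic level, at 8 to 10 weeks of age by the study's methods and 10 to 12 weeks by the labels. The labels of the naive libraries carry the same 10 to 12 weeks. By the study, naive tissue was taken on the day of the dpi 42 tissue, 10 weeks after tamoxifen began. Naive mice thus matched dpi 42 mice in age and time since tamoxifen, and were older than dpi 2 and dpi 10 mice. In changes against naive on dpi 2 and dpi 10, injury and this difference cannot be told apart. A segment of 5 mm was taken 2, 10 or 42 days post-injury (dpi). Each of the 4 conditions had 3 pools of 2 mice, and every pool gave a library of RNA bound to HA-tagged ribosomes (OL) and a library of RNA from all cells (total RNA), which makes 8 groups of n = 3 and 24 libraries of 25840127 to 32987841 counts. That promoter is also active in Schwann cells, so OL libraries can hold RNA from nerve roots.

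Anti-apoptotic members bind and hold BH3-only proteins and active effectors. When BH3-only proteins exceed the free binding sites, BAX and BAK form pores in the outer mitochondrial membrane, cytochrome c is released and the apoptosome activates caspases. BH3-only genes are the stress sensors of the family: Bbc3 and Pmaip1 are p53 targets, FOXO factors and JNK signalling raise Bcl2l11, loss of trophic support raises Hrk in neurons, and BID links death receptors to mitochondria. Oligodendrocytes, the myelin-forming cells of the cord, die in large numbers after contusion.

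Promoter windows of 250 bases before a RefSeq start (GRCm38.p6) were used for 9 of the 10 members, 14 windows in all. No window was used for Pmaip1. Those of Mcl1 and Bax are printed because these genes rose in OL and in total RNA at every time point, and that of Bcl2l11 because it rose in total RNA without a called change in OL. Those rises are without an offset for exon length and GC content. Bak1 rose likewise, but its window overlaps annotated exons and is not printed. The printed windows lie at chr3:95658471-95658720 on the plus strand, chr7:45466899-45467148 on the minus strand and chr2:128125788-128126037 on the plus strand. Each is written 5′ to 3′ along the gene, with matches to the motifs searched in capitals.
Mcl1: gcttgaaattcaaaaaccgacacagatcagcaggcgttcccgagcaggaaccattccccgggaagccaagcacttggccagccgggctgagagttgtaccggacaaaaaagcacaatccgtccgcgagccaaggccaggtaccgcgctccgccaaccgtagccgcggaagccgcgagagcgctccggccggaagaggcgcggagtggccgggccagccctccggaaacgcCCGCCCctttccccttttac
Bax: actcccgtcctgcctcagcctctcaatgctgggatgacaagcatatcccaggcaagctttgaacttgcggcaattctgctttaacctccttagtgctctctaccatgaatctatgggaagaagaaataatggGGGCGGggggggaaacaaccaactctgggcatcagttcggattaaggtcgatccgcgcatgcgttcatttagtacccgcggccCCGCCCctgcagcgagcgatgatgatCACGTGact
Bcl2l11: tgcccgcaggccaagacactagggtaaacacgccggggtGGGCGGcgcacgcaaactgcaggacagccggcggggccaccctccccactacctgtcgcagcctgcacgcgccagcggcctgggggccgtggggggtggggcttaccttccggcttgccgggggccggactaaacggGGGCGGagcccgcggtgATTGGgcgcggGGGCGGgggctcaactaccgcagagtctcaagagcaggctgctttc
The motifs, searched on both strands, were GGGCGG (a GC box), the CCAAT box, the core TGACG of CRE sites and the E-box CACGTG, and none of them contains another. GGGCGG was present in 10 of the 14 member windows, spread over Bax, Bbc3, Bcl2, Bcl2l11, Bid, Hrk and Mcl1, and in 32.7% of the 32851 windows of all genes. Member windows were 47.6% to 81.6% GC, beside a median of 52.4% over all windows, and GC content was not matched. Bcl2l1, Bcl2l11 and Bbc3 have several windows each, which partly overlap for Bbc3. Windows of Bcl2l1, Bak1, Bid and Hrk overlap annotated exons, and that of Hrk lies 5116 bases from the annotated gene start. CACGTG was present in windows of Bax and Bbc3 and in 6.02% of all windows. CCAAT was present in 3 member windows and in 33.8% of all windows, and the core TGACG in 3 and 17.8%. A match describes letters and not a bound site.

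Levels are given as CPM, each gene's counts scaled to a common library size after TMM normalisation. Summed over 8 OL markers the OL libraries held 96315 to 157866 CPM and the total libraries 19318 to 27881. Microglia and macrophage markers (7 genes, all called higher than naive at each time in both kinds of RNA) summed to 4.95 to 6.72 CPM in naive OL, 61.0 to 217 in injured OL, 87.2 to 107 in naive total RNA and 985 to 4092 in injured total RNA. Astrocyte markers (4 genes) differed widely between OL libraries of 1 group, with 912, 713 and 3888 CPM in naive, 2197, 801 and 6429 on dpi 2, 1626, 5070.5 and 2033 on dpi 10, then 10509, 8321 and 1606 on dpi 42. In total RNA they were at 1910 to 2951 CPM in naive, 5070 to 5427 on dpi 2, 5513 to 6123 on dpi 10 and 4362 to 6060 on dpi 42. OL replicate 3 in naive and on dpi 2, and OL replicates 1 and 2 on dpi 42, lay above every total library of their condition. Schwann cell markers (3 genes) were at 1.60, 1.48 and 634 CPM in naive OL, so that naive OL replicate 3 stood apart in both, and at 206 to 1516 in injured OL. In total RNA the Schwann cell markers were at 1.84 to 174 CPM in naive and 57.2 to 661 after injury. Neuron markers (6 genes) were at 219 to 426 CPM in OL and 2937 to 7717 in total RNA, neutrophil markers (6 genes, Ly6g at 0 in every OL library) at 0.891 to 17.2 and 6.81 to 97.8, and T and B cell markers (3 genes) at no more than 1.27. Markers of OPCs (2 genes) and endothelial cells (3 genes) were at 6.85 to 28.2 and 3.60 to 14.1 CPM in OL. Pool 2 of dpi 2 had 2414 (OL) and 2604 (total RNA) counts on Y-linked genes against at most 13 in any other library, although the mice are labelled female. Labels of 2 dpi 42 libraries contradict each other on the kind of RNA, and these were placed by the description, which the column names follow.

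Scaled by exon length, Bcl2l1 and Mcl1 were the most abundant members in all 8 groups. In naive OL Bcl2l1 was at 62.3 ± 0.118 CPM per kb and Mcl1 at 48.0 ± 1.27 (SD, n = 3), without overlap, while Mcl1 had the higher mean in every injured group. On dpi 2 in OL their ranges, 87.2 to 124 for Mcl1 and 74.5 to 118 for Bcl2l1, overlapped. Bax was the third in all groups (14.3 ± 2.89 in naive OL) and Bak1 the fourth (8.96 ± 1.29). The other members of naive OL followed in the order Bcl2l11 (0.917 ± 0.0481), Bbc3 (0.826 ± 0.435), Bcl2 (0.774 ± 0.440), Bid (0.290 ± 0.0577), Pmaip1 (0.176 ± 0.211) and Hrk (0.0644 ± 0.0311 CPM per kb). The first 3 of these overlapped in range, and Pmaip1 overlapped Bid and Hrk. In naive total RNA Bcl2 was the fifth at 3.48 ± 0.129 CPM per kb and Bcl2l11 last at 0.616 ± 0.166.

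The anti-apoptotic genes were distributed differently between OL and total RNA. Bcl2l1 (ENSMUSG00000007659, chr2:152780668-152831728, GRCm38), whose protein guards the mitochondrial membrane, was at 285, 286 and 286 CPM in naive OL and 103, 104 and 112 in naive total RNA, and OL lay above total RNA in all 4 conditions. Its OL enrichment, the log2 ratio of OL to total RNA, was 1.42 ± 0.15, 1.55 ± 0.15, 1.31 ± 0.15 and 1.23 ± 0.15 (SE) in naive and on dpi 2, 10 and 42, with q = 3.05e-08, 1.33e-08, 1.24e-07 and 3.05e-07 (edgeR quasi-likelihood test, adjusted over all genes tested). Mcl1 (ENSMUSG00000038612, chr3:95658788-95663176), a short-lived guardian, was at 162, 169 and 161 CPM in naive OL and 73.1, 65.3 and 74.6 in total RNA. Enrichment of Mcl1 was 1.21 ± 0.13, 0.97 ± 0.13, 0.53 ± 0.13 and 0.88 ± 0.13 in the 4 conditions, called in each, and its dpi 10 value was −0.05 when libraries were scaled by size alone. Bcl2 (ENSMUSG00000057329, chr1:106538178-106714274) was distributed the other way, with 4.79, 4.74 and 11.7 CPM in naive OL and 32.95, 32.1 and 30.6 in total RNA. Its enrichment was −2.17 ± 0.30, −1.09 ± 0.29, −1.99 ± 0.30 and −1.19 ± 0.29 (q = 2.77e-06, 0.00352, 9.11e-06 and 0.00163), and no OL library reached a total library of its condition. With a smooth offset for exon length and GC content the dpi 2 and dpi 42 values of Bcl2 were −0.61 (q = 0.0717) and −0.66 (q = 0.0532).

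**Figure D1:**
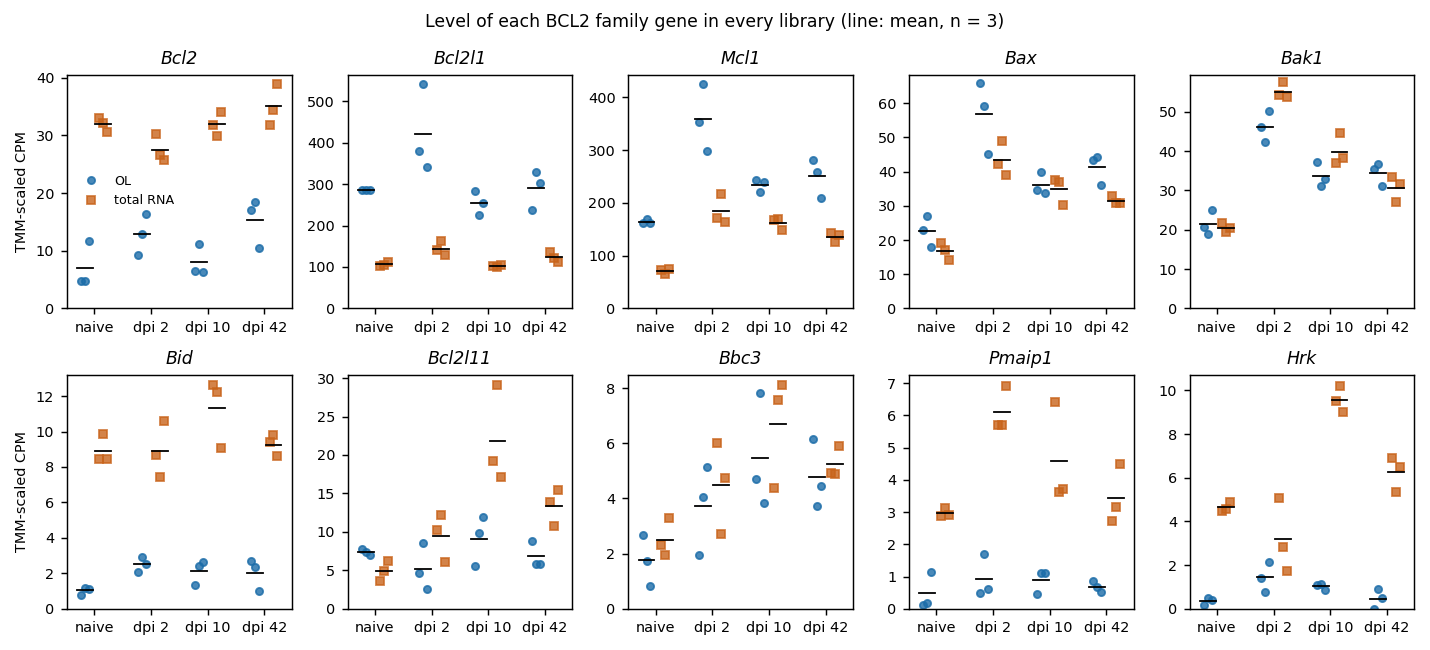
TMM-scaled CPM (linear axis from 0) of each gene in each library, by condition, for OL and total RNA, with a line at the mean of n = 3. Bcl2l1 and Mcl1 lie higher in OL in every condition, with Bcl2l1 near 286 CPM in naive OL, and Bcl2, Bid and Pmaip1 lie higher in total RNA.

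After injury Mcl1 rose at all 3 time points in both kinds of RNA. Its OL levels were 354, 425 and 298 CPM on dpi 2, 243, 221 and 239.5 on dpi 10, then 281, 259 and 210.2 on dpi 42. Every injured OL library lay above every naive one. The log2 changes in OL were 1.13 ± 0.13, 0.51 ± 0.13 and 0.61 ± 0.13 (q = 5.60e-07, 0.00666 and 0.000856). In total RNA Mcl1 was at 171, 217 and 164 CPM on dpi 2, 169, 170.1 and 149 on dpi 10, then 142, 126 and 139 on dpi 42, changes of 1.37 ± 0.13, 1.19 ± 0.13 and 0.94 ± 0.13, again without overlap. With the length and GC offset the OL changes of Mcl1 on dpi 10 and dpi 42 were 0.33 (q = 0.117) and 0.37 (q = 0.0617). In bulk RNA, a change in the number of cells of a type and a change in RNA per cell cannot be told apart.

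Bcl2l1 rose on dpi 2 in both kinds of RNA and was not called at the later times. In OL it was at 381, 542 and 341 CPM on dpi 2, 284, 224 and 254 on dpi 10, then 238, 329 and 303 on dpi 42. The dpi 2 libraries all lay above naive, and the later ones were spread around it. OL changes were 0.56 ± 0.14, −0.17 ± 0.14 and 0.02 ± 0.14 (q = 0.00363, 0.472 and 1.00). Without dpi 2 OL replicate 2, which had the highest level and the Y-linked counts, the dpi 2 change was 0.28 (q = 0.109). Total RNA changes of Bcl2l1 were 0.43 ± 0.14, −0.06 ± 0.14 and 0.21 ± 0.14 (q = 0.0211, 0.800 and 0.315), and the dpi 2 call was lost without naive total replicate 1 or 2 or dpi 2 total replicate 2 (0.41, 0.42 and 0.34).

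Bcl2 rose in OL on dpi 2 and dpi 42, with levels of 9.34, 12.96 and 16.4 CPM on dpi 2, 6.56, 11.2 and 6.28 on dpi 10, then 17.1, 18.4 and 10.6 on dpi 42. Each group overlapped naive, in which replicate 3 was the highest. OL changes were 0.86 ± 0.30, 0.18 ± 0.30 and 1.11 ± 0.30 (q = 0.0265, 0.778 and 0.00644). In total RNA Bcl2 was at 25.7 to 38.8 CPM over all 12 libraries, with changes of −0.21 ± 0.29, 0.00 ± 0.29 and 0.14 ± 0.29, none called. Within naive, dpi 2 and dpi 10, the OL library with the most Bcl2 was also the one with the most astrocyte marker CPM. On dpi 42 replicate 2 had the most Bcl2 but replicate 1 the most marker CPM. The least of each lay in the same library in naive and on dpi 42, and in different libraries at the other times. In OL, 1 of the 4 astrocyte markers was called lower than naive on dpi 2. By dpi 42, 1 was called higher. In total RNA their sum rose at each time, yet 1 was called lower on dpi 2 and none higher at any time. The part of astrocyte RNA in the Bcl2 values was not tested. Without naive OL replicate 3 the OL changes of Bcl2 were 1.37 (q = 0.000249), 0.75 (q = 0.0462) and 1.62 (q = 6.80e-05). Without naive OL replicate 1 they were 0.58 (q = 0.168) on dpi 2 and 0.84 (q = 0.0551) on dpi 42, and without replicate 2 0.57 (q = 0.171) and 0.83 (q = 0.0558). The dpi 2 call was also lost without dpi 2 OL replicate 2 or 3 (0.80 and 0.59).

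Both effectors rose at every time point in both kinds of RNA. Bax (ENSMUSG00000003873, chr7:45461697-45466898), whose protein moves from the cytosol to mitochondria, was at 22.8, 27.0 and 17.9 CPM in naive OL, 65.8, 59.3 and 45.1 on dpi 2, 34.5, 40.0 and 33.8 on dpi 10, then 43.4, 44.2 and 36.2 on dpi 42. Every injured OL library lay above every naive one. OL changes of Bax were 1.33 ± 0.16, 0.68 ± 0.16 and 0.87 ± 0.16 (q = 1.71e-06, 0.00568 and 0.000310). In total RNA Bax was at 14.3 to 19.2 CPM in naive, 39.1 to 48.9 on dpi 2, 30.1 to 37.5 on dpi 10 and 30.9 to 32.8 on dpi 42, changes of 1.36 ± 0.16, 1.04 ± 0.16 and 0.90 ± 0.16.

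Bak1 (ENSMUSG00000057789, chr17:27019810-27029009), whose protein sits in the mitochondrial membrane from the start, was at 20.8, 18.9 and 25.0 CPM in naive OL, 46.1, 42.3 and 50.2 on dpi 2, 37.2, 31.0 and 32.96 on dpi 10, then 35.5, 36.8 and 31.2 on dpi 42. Naive and injured OL libraries did not overlap. OL changes of Bak1 were 1.10 ± 0.12, 0.64 ± 0.12 and 0.68 ± 0.12 (q = 5.78e-07, 0.000886 and 0.000249). Total RNA went from 21.8, 19.6 and 20.4 CPM in naive to 54.2, 57.6 and 53.7 on dpi 2, the highest Bak1 levels of the series, and changed by 1.42 ± 0.12, 0.96 ± 0.12 and 0.58 ± 0.12.

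The later rises of the effectors depended on whether an offset for exon length and GC content, fitted together, was used. Exons of Bax are 63.5% GC over 1576 bases and those of Bak1 57.1% over 2407. With the length and GC offset the OL changes were 0.52, 0.00 and −0.05 for Bax and 0.62, 0.20 and 0.05 for Bak1, and the dpi 42 changes in total RNA were 0.56 (q = 0.0540) and 0.21 (q = 0.225). OL enrichment of Bax was 0.42 ± 0.16, 0.39 ± 0.16, 0.05 ± 0.16 and 0.39 ± 0.16 (q = 0.0349, 0.0476, 0.830 and 0.0466) and that of Bak1 0.07 ± 0.12, −0.26 ± 0.12, −0.24 ± 0.12 and 0.17 ± 0.12 (q = 0.675, 0.0836, 0.102 and 0.256). The DESeq2 Wald test did not call Bax enriched in naive, on dpi 2 or on dpi 42, at 0.35 (q = 0.0643), 0.33 (q = 0.0854) and 0.31 (q = 0.103). Scaled by library size alone, Bax enrichment was negative in all 4 conditions, −0.10, −0.19, −0.53 and −0.11, and Bak1 was at −0.44 in naive and −0.33 on dpi 42. Single libraries decided the calls of Bax enrichment, which was 0.43 or 0.31 in naive without total replicate 2 or 3, 0.20 to 0.37 on dpi 2 without OL replicate 1 or 2 or total replicate 1 or 3, and 0.34 to 0.42 on dpi 42 without OL replicate 1 or 2 or any total replicate, with no call. Exons of Bax overlap Gm45808 on the same strand and exons of Bak1 overlap Ggnbp1 on the other, and whether the counting used strand is not given in the sources used here.

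**Figure D2:**
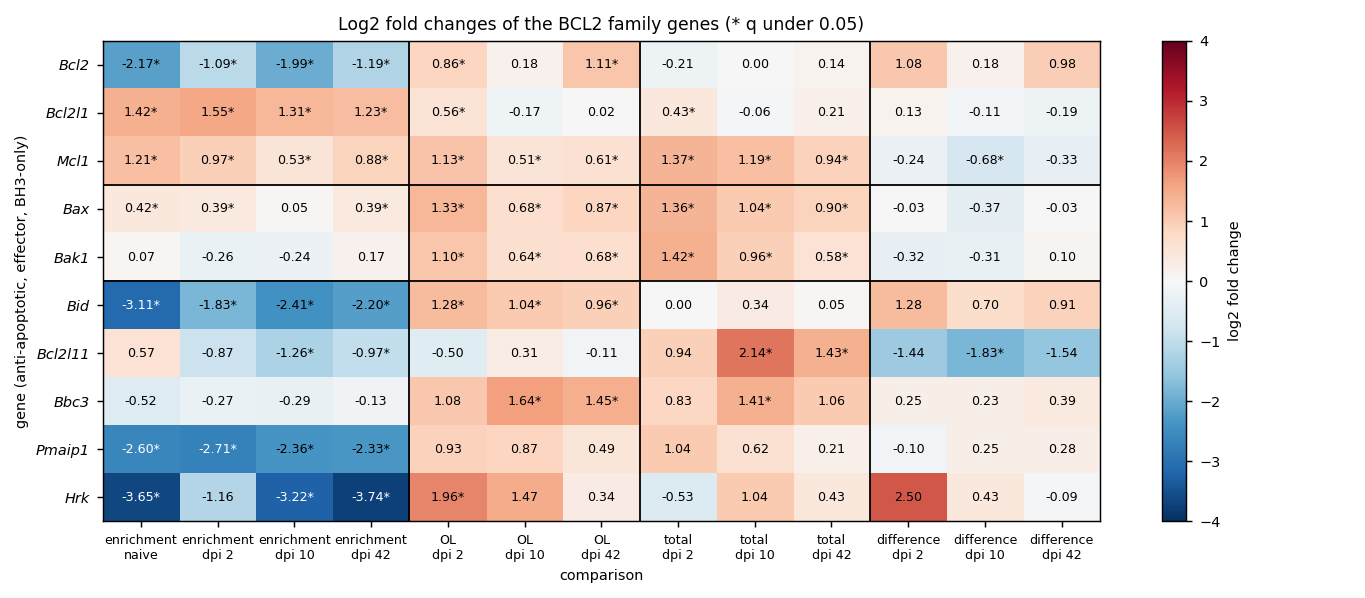
Log2 fold changes of the 10 genes (vertical axis, ordered by role) in each comparison (horizontal axis), in colour and in numbers, with an asterisk at q under 0.05. Mcl1, Bax and Bak1 have an asterisk in all OL and total RNA changes against naive, and no gene has one with a negative change there.

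The BH3-only genes were scarce in OL. Bid (ENSMUSG00000004446, chr6:120891930-120916853), whose protein is cut by caspase 8, had 19, 28 and 29 counts in naive OL and 258, 306 and 266 in total RNA, and its OL libraries lay below its total libraries in every condition. Enrichment of Bid was −3.11 ± 0.35, −1.83 ± 0.33, −2.41 ± 0.34 and −2.20 ± 0.33 (q = 1.38e-07, 8.05e-05, 3.17e-06 and 9.46e-06). In OL it was at 0.798, 1.18 and 1.11 CPM in naive, 2.08, 2.92 and 2.52 on dpi 2, 1.32, 2.44 and 2.63 on dpi 10, then 2.69, 2.35 and 0.978 on dpi 42. The dpi 2 and dpi 10 libraries lay above naive, and dpi 42 overlapped it. OL changes of Bid were 1.28 ± 0.34, 1.04 ± 0.34 and 0.96 ± 0.34 (q = 0.00515, 0.0383 and 0.0354), and total RNA changes were 0.00 ± 0.32, 0.34 ± 0.32 and 0.05 ± 0.32, none called. The dpi 10 call was lost in 5 of the fits that left out a library, naive OL replicates 1, 2 and 3 and dpi 10 OL replicates 2 and 3 (0.86 to 1.15). On dpi 42 it was lost without any naive OL replicate or without dpi 42 OL replicate 1 or 2 (0.64 to 1.00), and without the libraries of conflicting labels it was 0.69 (q = 0.192). With the length and GC offset the OL changes of Bid on dpi 10 and dpi 42 were 0.78 (q = 0.104) and 0.64 (q = 0.174). Exons of Bid overlap Bcl2l13 on the other strand.

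Bcl2l11 (ENSMUSG00000027381, chr2:128126038-128162547), whose protein BIM binds all the guardians, rose in total RNA and had no called change in OL. In total RNA it was at 3.61, 4.96 and 6.28 CPM in naive, 10.3, 12.2 and 6.08 on dpi 2, 19.2, 29.1 and 17.2 on dpi 10, then 13.9, 10.8 and 15.4 on dpi 42. The dpi 10 and dpi 42 libraries lay above naive, and dpi 2 overlapped it. Total RNA changes were 0.94 ± 0.37, 2.14 ± 0.38 and 1.43 ± 0.37 (q = 0.0519, 0.000174 and 0.00817). In OL it was at 7.73, 7.40 and 6.96 CPM in naive, 4.61, 8.51 and 2.56 on dpi 2, 5.51, 9.85 and 12.0 on dpi 10, then 8.84, 5.82 and 5.79 on dpi 42, and each injured group overlapped naive. OL changes were −0.50 ± 0.37, 0.31 ± 0.37 and −0.11 ± 0.37 (q = 0.322, 0.647 and 0.911). Without dpi 2 OL replicate 2 the dpi 2 value was −1.09 (q = 0.0309). Enrichment of Bcl2l11 was 0.57 ± 0.37, −0.87 ± 0.37, −1.26 ± 0.37 and −0.97 ± 0.37 (q = 0.203, 0.0556, 0.00682 and 0.0321), and with the pool of tissue as a block the dpi 2 value was −0.97 (q = 0.0211). Enrichment on dpi 42 was −0.47 (q = 0.307) with the length and GC offset. The dpi 10 call was lost without dpi 10 OL replicate 1 (−0.96), and that of dpi 42 without OL replicate 2 or 3 or total replicate 1 or 3 (−0.94 to −0.85). Microglia and macrophage markers rose in the same total libraries, and their part in the rise of Bcl2l11 was not tested.

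Bbc3 (ENSMUSG00000002083, chr7:16308393-16318205), the gene of PUMA, was at similar levels in both kinds of RNA, with enrichments of −0.52 ± 0.45, −0.27 ± 0.44, −0.29 ± 0.43 and −0.13 ± 0.43, none called. In OL it was at 2.69, 1.73 and 0.841 CPM in naive, 1.97, 4.05 and 5.13 on dpi 2, 4.70, 7.84 and 3.84 on dpi 10, then 6.15, 3.73 and 4.46 on dpi 42. The dpi 10 and dpi 42 libraries lay above naive, and dpi 2 overlapped it. OL changes were 1.08 ± 0.45, 1.64 ± 0.45 and 1.45 ± 0.45 (q = 0.0639, 0.0145 and 0.0172) and total RNA changes 0.83 ± 0.44, 1.41 ± 0.44 and 1.06 ± 0.44 (q = 0.149, 0.0181 and 0.0938). Without the libraries of conflicting labels the dpi 42 change in OL was 1.22 (q = 0.0825). Exons of Bbc3 are 65.2% GC, and the length and GC offset gave OL changes of 0.39, 1.03 and 0.68. The dpi 10 call in OL was lost without naive OL replicate 2 or 3 or dpi 10 OL replicate 2 (1.62, 1.30 and 1.28), and that of dpi 42 without naive OL replicate 2 or 3 or dpi 42 OL replicate 1 (1.38, 1.05 and 1.18). In total RNA the dpi 10 call was lost without naive replicate 1 or 2 or dpi 10 replicate 2 or 3 (1.25 to 1.35).

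Hrk (ENSMUSG00000046607, chr5:118164648-118189478), a death gene of neurons whose protein blocks BCL-xL, rested on few reads in OL, with 4, 12 and 11 counts in naive, 37, 19 and 56 on dpi 2, 28, 30 and 22 on dpi 10, then 0, 24 and 13 on dpi 42. As CPM these are 0.168, 0.508 and 0.421 in naive, 1.40, 0.770 and 2.14 on dpi 2, 1.09, 1.14 and 0.837 on dpi 10, then 0.00, 0.896 and 0.509 on dpi 42. The dpi 2 and dpi 10 libraries lay above naive, and dpi 42 overlapped it. OL changes were 1.96 ± 0.70, 1.47 ± 0.70 and 0.34 ± 0.72 (q = 0.0305, 0.162 and 0.799). The dpi 2 call was lost without naive OL replicate 1 or 3, with 1.57 (q = 0.132) and 2.01 (q = 0.0575), and without dpi 2 OL replicate 1 or 3, with 1.91 (q = 0.0545) and 1.503 (q = 0.120). In total RNA Hrk was at 4.49, 4.58 and 4.88 CPM in naive, 5.07, 2.84 and 1.72 on dpi 2, 9.52, 10.2 and 9.005 on dpi 10, then 6.93, 5.36 and 6.49 on dpi 42. Each dpi 10 and dpi 42 total library lay above every naive one, and dpi 2 overlapped naive. Total RNA changes were −0.53 ± 0.62, 1.04 ± 0.62 and 0.43 ± 0.61, none called. The test used a spread estimated over all 8 groups, including the OL groups with few Hrk counts. Enrichment of Hrk was −3.65 ± 0.72, −1.16 ± 0.63, −3.22 ± 0.68 and −3.74 ± 0.71 (q = 0.000161, 0.129, 0.000373 and 0.000124). Neuron markers summed to 251, 244 and 371 CPM in OL on dpi 2 and 426, 360 and 333 in naive OL, in the order of replicates. Of these 6 markers 1 was called higher and 3 lower in OL on dpi 2. In total RNA their sums were 2937 to 3851 CPM on dpi 2 and 7283 to 7717 in naive. The part of neuron RNA in the Hrk values was not tested.

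Pmaip1, the gene of NOXA, which binds MCL1, had 3, 4 and 30 counts in naive OL and 12 to 42 in injured OL. The naive library with the most was replicate 3, which also had the most astrocyte and Schwann cell marker CPM of the naive OL libraries. OL changes were 0.93 ± 0.64, 0.87 ± 0.64 and 0.49 ± 0.64 (q = 0.272, 0.395 and 0.621), and without that library 2.56 (q = 0.00369), 2.56 (q = 0.00813) and 2.12 (q = 0.0150). In total RNA Pmaip1 was at 2.89, 3.13 and 2.92 CPM in naive and 5.71, 5.71 and 6.92 on dpi 2, all above naive, with changes of 1.04 ± 0.59, 0.62 ± 0.59 and 0.21 ± 0.59, none called. Its enrichment was −2.60 ± 0.65, −2.71 ± 0.63, −2.36 ± 0.63 and −2.33 ± 0.63, called in each condition.

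Counted over the 10 members, OL enrichment was called positive for 3 and negative for 4 in naive, beside 24.9% and 30.5% of all genes tested. These counts were 3 and 3 on dpi 2 (24.8% and 28.8%), 2 and 5 on dpi 10 (25.2% and 28.8%), and 3 and 5 on dpi 42 (24.9% and 28.9%). Against naive, 7 members rose in OL on dpi 2 beside 18.4% of all genes, 5 on dpi 10 beside 9.62% and 6 on dpi 42 beside 16.2%. In total RNA 4 rose on dpi 2 (16.4% of genes), 5 on dpi 10 (13.9%) and 4 on dpi 42 (10.4%). The median change of the members was 1.09, 0.66 and 0.64 in OL, where that of all genes was 0.00 at each time, and 0.89, 1.00 and 0.50 in total RNA, where that of all genes was −0.10, −0.10 and −0.08. By edgeR 0 members were lower than naive in either kind of RNA, with 0 at an unadjusted p under 0.05 and 0 by DESeq2, while 20%, 8.59% and 16.9% of all genes were lower in OL and 20.8%, 18.2% and 12.1% in total RNA. With the length and GC offset, 7, 0 and 1 members rose in OL, beside 14.4%, 7.31% and 9.87% of all genes in that fit. In fits of only the groups compared 4, 3 and 3 rose in OL, beside 14%, 7.33% and 10.2%. More members, and a larger share of all genes, rose in total RNA there on dpi 2 and dpi 10 than with all 8 groups. The OL calls lost there were those of Bcl2, Bid and Hrk on dpi 2, Bid and Bbc3 on dpi 10, and Bcl2, Bid and Bbc3 on dpi 42, with q of 0.0586 to 0.269.

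**Figure D3:**
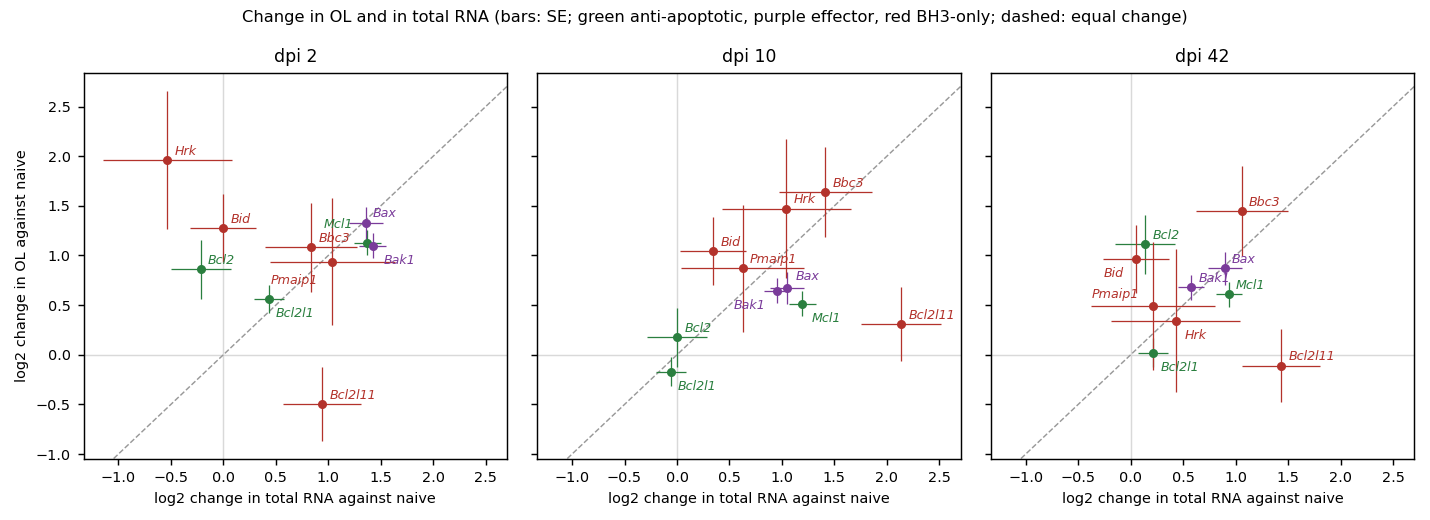
Log2 change against naive in OL (vertical axis) and in total RNA (horizontal axis) on dpi 2, 10 and 42, with the SE as bars and equal change as a dashed line. Bcl2l11 lies below the line at each time, with 0.31 in OL and 2.14 in total RNA on dpi 10.

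Differential OL enrichment, the OL change minus the total RNA change, asks whether a gene moved differently in OL than in total RNA. On dpi 10 it was called for 2 of 10 members, both negative, beside 7.65% of all genes. These were Mcl1 at −0.68 ± 0.18 (q = 0.0218) and Bcl2l11 at −1.83 ± 0.52 (q = 0.0355). Without naive total replicate 2, dpi 10 total replicate 1 or dpi 10 total replicate 2 the Mcl1 value was −0.62, −0.65 or −0.65 and was not called. Bcl2l11 lost the call without those same libraries and without naive OL replicate 1, dpi 10 OL replicate 1 or naive total replicate 1, at −1.92 to −1.57. On dpi 2 edgeR called 0 members, beside 14.1% of all genes, with 3 higher and 1 lower at an unadjusted p under 0.05. The DESeq2 Wald test called Hrk at 2.51 (q = 0.0155), Bid at 1.29 (q = 0.0295) and Bcl2l11 at −1.43 (q = 0.0473), for which edgeR gave 2.50 ± 0.93 (q = 0.0811), 1.28 ± 0.46 (q = 0.0731) and −1.44 ± 0.53 (q = 0.0765).

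With the pool as a block the dpi 2 value of Bcl2l11 was −1.57 (q = 0.0342). Bcl2 was at 1.08 ± 0.41 (q = 0.0928) on dpi 2 and at 1.44 (q = 0.00471) without naive OL replicate 3. On dpi 42 edgeR called 0 members, beside 7.84% of all genes, with 1 higher and 1 lower at an unadjusted p under 0.05 and 1 lower by DESeq2. The lower one was Bcl2l11, at −1.54 ± 0.53 (q = 0.0765), and at −1.59 (q = 0.0473) with the pool as a block. Bax was at −0.03 ± 0.23, −0.37 ± 0.23 and −0.03 ± 0.23 on dpi 2, 10 and 42.

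Between injured time points the abundant members fell in OL. From dpi 2 to dpi 10, 4 of 10 fell, beside 10.6% of all genes, namely Bcl2l1 at −0.73 ± 0.14 (q = 0.000770), Mcl1 at −0.61 ± 0.13 (q = 0.00118), Bax at −0.65 ± 0.16 (q = 0.00529) and Bak1 at −0.45 ± 0.12 (q = 0.0102). Without dpi 2 OL replicate 1 Bax was at −0.46 and Bak1 at −0.38, neither called, and Bak1 was not called without dpi 2 OL replicate 3 or dpi 10 OL replicate 2 or 3 (−0.38 to −0.33). From dpi 2 to dpi 42, 3 fell, beside 8.66%, namely Bcl2l1 at −0.54 ± 0.14 (q = 0.0120), Mcl1 at −0.52 ± 0.13 (q = 0.00639) and Bak1 at −0.42 ± 0.12 (q = 0.0213). The Bcl2l1 value was −0.32 (q = 0.0957) without the pool that held Y-linked counts and −0.41 (q = 0.0782) without the libraries of conflicting labels, and it was not called without dpi 2 OL replicate 2 (−0.31) or dpi 42 OL replicate 1 (−0.39). Bak1 was not called without dpi 2 OL replicate 1 or 3 or dpi 42 OL replicate 3 (−0.41 to −0.36). In the fit of only dpi 2 and dpi 42 OL libraries 0 of the 10 were called lower, beside 2.55% of all genes, with Bcl2l1 at −0.56 (q = 0.158), Mcl1 at −0.54 (q = 0.120) and Bak1 at −0.44 (q = 0.179). The value of Bax from dpi 2 to dpi 10 was −0.52 (q = 0.0749) with the length and GC offset. Hrk was at −1.62 ± 0.68 (q = 0.107).

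A filtration after that of the study, run here with edgeR and without pairing where the study used a paired DESeq2 interaction, asks for an OL change past 1 on the log2 scale with q under 0.05, together with either a called differential OL enrichment of the same sign and past 1 or a called OL enrichment over 1 in naive tissue and at that time. The first step was met on dpi 2 by Mcl1, Bax, Bak1, Bid and Hrk, on dpi 10 by Bid and Bbc3, and on dpi 42 by Bcl2 and Bbc3. Of the 10 members 0 met the second step at any time, beside 3.86%, 0.868% and 1.88% of all genes that passed on dpi 2, 10 and 42. Enrichment of Mcl1 was 1.21 in naive and 0.97 on dpi 2. Mcl1 passed on dpi 2 when the length and GC offset was used, beside 3.94% of all genes. With the DESeq2 Wald test Bid and Hrk passed on dpi 2, beside 4.48%. With that test and the tissue pool as a block, which is nearer to the study's design, Hrk passed on dpi 2, beside 4.27%, with a differential OL enrichment of 2.6 (q = 0.0350), and Bid was at 1.30 (q = 0.0675).

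Ratios of counts within a library do not depend on scaling between libraries. The length and GC offset was not applied to them, so shifts of single genes with length or GC remain in them. Exons of Bax are 63.5% GC over 1576 bases and those of Bcl2l1 55.9% over 4586. Bax had 6.28 to 9.44 counts per 100 counts of Bcl2l1 in naive OL, 10.9 to 17.3 on dpi 2, 12.2 to 17.9 on dpi 10 and 11.9 to 18.3 on dpi 42, so injured and naive OL did not overlap. In total RNA this ratio was 12.7 to 18.6 in naive and 29.8 to 30.6, 28.8 to 37.4 and 24.1 to 27.5 after injury. Mcl1 had 56.5 to 59.1 counts per 100 of Bcl2l1 in naive OL and 78.5 to 92.9, 85.9 to 98.4 and 69.4 to 118 after injury, also without overlap. Bax per 100 counts of Bcl2 was 153 to 571 in naive OL and overlapped it after injury, at 274 to 705 on dpi 2. Bbc3 per 100 of Bcl2l1 was 0.614 ± 0.324 in naive OL and 2.22 ± 1.11 on dpi 10 (SD, n = 3), without overlap. On dpi 2 it was 0.516 to 1.501, which overlapped the naive 0.294 to 0.943, and on dpi 42 1.13 to 2.59, which did not. Hrk per 100 of Bcl2l1 in OL was 0.0589 to 0.177 in naive, 0.142 to 0.627 on dpi 2, 0.329 to 0.509 on dpi 10 and 0.00 to 0.272 on dpi 42, and the naive range overlapped those of dpi 2 and dpi 42. In total RNA it was 4.34 to 4.40 in naive, 1.35 to 3.58 on dpi 2, 8.62 to 10.3 on dpi 10 and 4.40 to 5.76 on dpi 42, lower than naive in each dpi 2 library, higher in each dpi 10 library, and on dpi 42 from the top of the naive range upwards. With 3 libraries against 3 an exact permutation test cannot go below p = 0.10, and no test was run on the ratios.

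**Figure D4:**
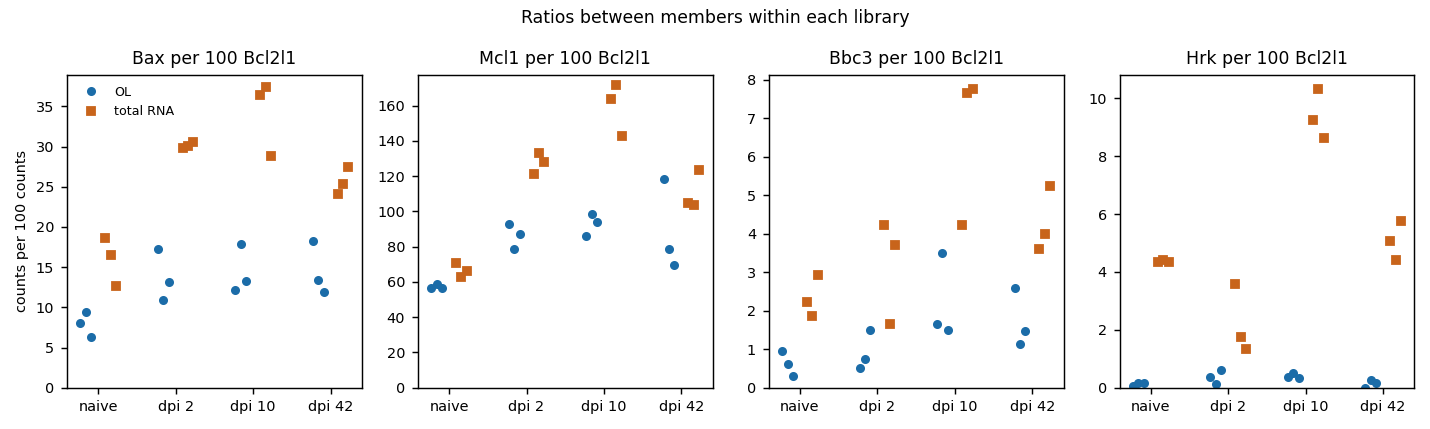
Counts of one member per 100 counts of another in each library (linear axes from 0), by condition, for OL and total RNA. Bax per 100 Bcl2l1 is 6.28 to 9.44 in naive OL and higher in every injured OL library. The length and GC offset was not applied.

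As a share of the members' summed CPM per kb, the anti-apoptotic genes made up 81.3 ± 0.915% (SD, n = 3) in naive OL and 76.8 ± 3.07%, 74.9 ± 2.48% and 75.6 ± 1.32% on dpi 2, 10 and 42. Effectors made up 17.03 ± 0.871% and 21.7 ± 3.18%, 22.2 ± 1.62% and 22.2 ± 0.865%. BH3-only genes made up 1.66 ± 0.175% and 1.45 ± 0.434%, 2.92 ± 0.920% and 2.19 ± 0.509%. The length and GC offset was not applied to the shares in OL or in total RNA. In total RNA the anti-apoptotic share was 65.1 ± 1.92%, 59.8 ± 1.93%, 59.0 ± 1.55% and 62.7 ± 0.671% and the BH3-only share 8.52 ± 0.693%, 5.92 ± 1.19%, 9.97 ± 0.538% and 8.11 ± 0.665% in naive and on dpi 2, 10 and 42.

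Of 14 further BCL2 family genes 13 were tested, with 5 higher and 1 lower on dpi 2, 2 higher and 1 lower on dpi 10 and 2 higher and 0 lower on dpi 42 in OL (median changes 0.25, 0.07 and 0.54) and 3 higher and 3 lower on dpi 2, 4 higher and 2 lower on dpi 10 and 3 higher and 1 lower on dpi 42 in total RNA. Over all genes tested, 18.4%, 9.62% and 16.2% were called higher and 20%, 8.59% and 16.9% lower in OL on dpi 2, 10 and 42. In total RNA 16.4%, 13.9% and 10.4% were higher and 20.8%, 18.2% and 12.1% lower. These shares stand beside the counts of this list and of every list in the next paragraphs. Bik, a BH3-only gene of the endoplasmic reticulum, had 0 counts in each naive OL library, 61, 61 and 44 on dpi 2, 28, 13 and 29 on dpi 10, then 26, 25 and 20 on dpi 42. Against a floor of 3 counts per library it was at least 17.6-fold, 7.30-fold and 7.14-fold higher. In total RNA Bik had 6, 4 and 0 counts in naive and 32, 82 and 54 on dpi 2, a change of 3.89 ± 0.90 (q = 0.00200). Bnip3l, a mitophagy receptor, changed by −0.76 ± 0.12 (q = 2.70e-05) in OL on dpi 2. Bcl2a1b, an anti-apoptotic gene of blood cells whose near-identical copies can share its reads, had 0, 0 and 4 counts in naive OL and 8, 3 and 69 on dpi 2, with 4.15 ± 1.19 (q = 0.00850). Without dpi 2 OL replicate 3 the value of Bcl2a1b was 1.86 (q = 0.231), and without naive OL replicate 3, the naive library with counts, it was 7.92 (q = 0.00469).

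Of 16 genes of the apoptosome and caspases, the calls were 5 higher and 2 lower on dpi 2, 1 higher and 1 lower on dpi 10 and 1 higher and 2 lower on dpi 42 in OL (medians 0.18, −0.04 and 0.00) and 2 higher and 3 lower on dpi 2, 3 higher and 3 lower on dpi 10 and 0 higher and 1 lower on dpi 42 in total RNA. Cycs, cytochrome c, changed on dpi 2 by 0.70 ± 0.11 (q = 1.97e-05) in OL and −0.34 ± 0.10 (q = 0.0137) in total RNA, a differential OL enrichment of 1.03 ± 0.15 (q = 8.06e-05). Xiap, a caspase inhibitor, changed by −0.79 ± 0.19 (q = 0.00241) in OL on dpi 2.

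Of 9 genes of the death receptor arm, the calls were 5 higher and 0 lower on dpi 2, 3 higher and 0 lower on dpi 10 and 3 higher and 0 lower on dpi 42 in OL (medians 0.94, 0.99 and 0.91) and 6 higher and 0 lower on dpi 2, 6 higher and 0 lower on dpi 10 and 5 higher and 0 lower on dpi 42 in total RNA (medians 1.60, 1.71 and 1.504). Casp8, the caspase that cuts BID, had 6, 1 and 6 counts in naive OL and 60, 52 and 109 on dpi 2, a change of 3.99 ± 0.63 (q = 3.25e-05), beside 3.09 ± 0.51 (q = 5.45e-05) in total RNA. Tnfrsf1a, a TNF receptor, had 110, 74 and 728 counts in naive OL, the most in replicate 3, and changed by 3.08 ± 0.54 (q = 0.000105), and by 4.63 (q = 1.81e-08) without that library. Cflar, which restrains caspase 8, changed by 0.94 ± 0.19 (q = 0.000383) in OL and 1.23 ± 0.19 (q = 2.37e-05) in total RNA. Microglia and macrophage markers rose in the same libraries, and their part in these values was not tested.

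Of 13 inducers of BH3-only genes, the calls were 4 higher and 4 lower on dpi 2, 1 higher and 1 lower on dpi 10 and 4 higher and 3 lower on dpi 42 in OL (medians −0.22, −0.10 and −0.03) and 4 higher and 6 lower on dpi 2, 4 higher and 5 lower on dpi 10 and 3 higher and 5 lower on dpi 42 in total RNA. Atf4, a transcription factor of the integrated stress response, changed on dpi 2 by 1.60 ± 0.13 (q = 6.78e-09) in OL and 0.54 ± 0.13 (q = 0.00204) in total RNA, a differential OL enrichment of 1.06 ± 0.18 (q = 0.000453). Ddit3 (CHOP), which lies downstream of it, changed by 1.20 ± 0.16 (q = 3.41e-06) on dpi 2 and 1.14 ± 0.16 (q = 1.30e-05) on dpi 42 in OL. Another Ensembl gene among the counts also carries the symbol Ddit3. The values are those of the lower Ensembl number, and the other is not described here. Foxo3, which can activate Bcl2l11, changed by −0.89 ± 0.11 (q = 2.99e-06) in OL on dpi 2. Of 8 protein partners and turnover factors, the calls were 2 higher and 3 lower on dpi 2, 0 higher and 3 lower on dpi 10 and 1 higher and 2 lower on dpi 42 in OL (medians 0.21, −0.23 and −0.03) and 0 higher and 6 lower on dpi 2, 0 higher and 7 lower on dpi 10 and 0 higher and 6 lower on dpi 42 in total RNA. Usp9x, which spares MCL1 from degradation, changed by −1.85 ± 0.20 (q = 3.19e-07) in OL on dpi 2, and Huwe1, a ligase that marks MCL1, by −0.78 ± 0.11 (q = 5.10e-06). Mtch2, a mitochondrial receptor of BID, changed by 0.60 ± 0.10 (q = 9.08e-05).

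The genes whose pattern over the 8 group means of log2 CPM was most like that of Hrk were Hook2, Kit, Mlph, Dclre1c and Stradb, with Pearson's r of 0.981, 0.975, 0.973, 0.973 and 0.968, out of 13677 genes compared. Each of them, like Hrk, had a lower mean in OL than in total RNA in every condition. From naive to dpi 10 in total RNA Hrk went from 4.65 to 9.58 CPM, Mlph from 2.66 to 4.58 and Dclre1c from 4.62 to 8.70. Over the same step Hook2 went from 5.50 to 5.79 CPM, Kit from 24.9 to 22.2 and Stradb from 25.7 to 23.6. The r values are descriptions over 8 means, in which each OL group shares its tissue pools with a total RNA group.

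**Figure D5:**
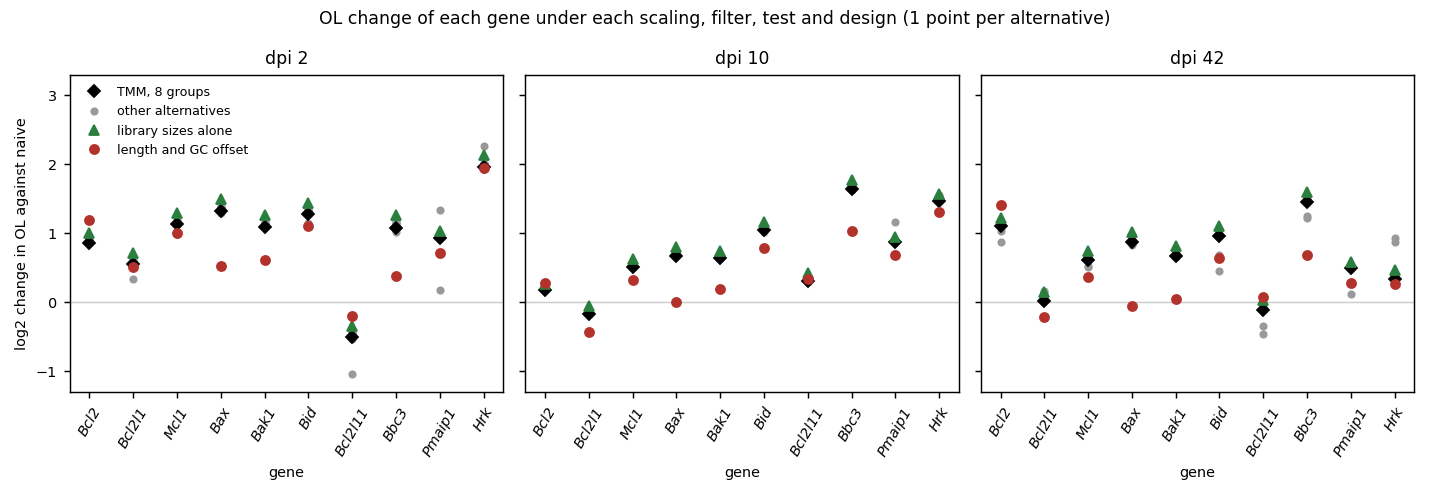
Log2 change in OL against naive of each gene on dpi 2, 10 and 42, with 1 point for each scaling, filter, test and design tried. Bax moves from 0.87 to −0.05 on dpi 42 once the length and GC offset is applied.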

How the data were processed

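Gene counts were deposited for 24 libraries of spinal cord RNA, and the values in the deposited table are raw counts per Ensembl gene that the authors made by aligning reads to mm10 (GRCm38.p6) with STAR 2.6 and counting with HTSeq 0.10.0, after quality control with FastQC 0.10.1. Counting strand and annotation release are not given in the sources used here, so genes with overlapping exons can share reads. Groups follow the labels, and 2 dpi 42 libraries with contradictory labels follow their description.

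Of 21965 genes, 17167 with at least 10 counts in sum were tested with the quasi-likelihood test of edgeR 4.0.16 (R 4.3.3) with TMM scaling and 1 mean for each of the 8 groups, over 15 comparisons. TMM factors were 0.742 to 0.899 in OL and 1.10 to 1.29 in total RNA. P-values were adjusted by Benjamini and Hochberg over all tested genes (q), and q under 0.05 was called. CPM are TMM-scaled, and per kb values were divided by exon length in GRCm38. The scripts were tested on simulated data. Each library held 25840127 to 32987841 counts, and a floor of 3 counts was used for genes at 0. Replicates are pools of different mice, and they differed by more than sampling noise, with median chi-square values of 2.67 to 23.0 against 0.455 for equal libraries. OL and total RNA of a pool come from the same tissue, which for dpi 42 rests on the column names. Their deviations from the group means correlated with r of 0.142, 0.130 and 0.240 in naive, 0.132, 0.163 and 0.167 on dpi 2, 0.131, 0.0415 and 0.0849 on dpi 10, then −0.0424, 0.00912 and 0.00464 on dpi 42. Alternatives were DESeq2 1.42.0 size factors and its Wald test, library sizes alone, other filters, only the groups compared, a block, a joint length and GC offset, and left-out libraries, with 2 further fits on pairing chosen after seeing the data.

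The members and gene lists were chosen with earlier results of these data known. Named in the text are the 10 members, up to 3 genes of each list with the smallest p in OL on dpi 2 among those called, and the 5 genes most like Hrk among genes with a mean of at least 1 CPM. 1 gene that this rule gives is not reported here. Promoter sequences are from RefSeq.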

Additional observations from a re-analysis of the deposited data

Results flagged for a closer look

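The OL change and the total RNA change of Mcl1 differed on dpi 10, with a differential OL enrichment of −0.68 ± 0.18 (q = 0.0218) by the edgeR test of the difference. Mcl1 was 0.51 ± 0.13 above naive in OL and 1.19 ± 0.13 above naive in total RNA. The changes of Bcl2l11 on dpi 10 differed as well, at −1.83 ± 0.52 (q = 0.0355), with 0.31 ± 0.37 in OL and 2.14 ± 0.38 in total RNA.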

How the results depend on the processing

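Of 2460 member values under an alternative, 2244 stayed on the same side of the threshold, 98 of them uncalled values with another sign, 123 lost and 85 gained a call, and 8 that were called in either fit changed sign. Library sizes alone reversed the enrichment of Bax (−0.10, −0.19, −0.53 and −0.11 in naive and on dpi 2, 10 and 42), of Bak1 (−0.44 in naive, −0.33 on dpi 42) and of Mcl1 on dpi 10 (−0.048), and the length and GC offset reversed the OL change of Bax on dpi 42 (−0.050). Library sizes alone moved the median enrichment of all genes by −0.57 to −0.50 and the offset by 0.28 to 0.32. The percent of called genes that were higher was 45.0 to 46.7 for enrichment, 18.5 to 24.4 with library sizes alone and 60.9 to 62.5 with the offset. For OL changes it was 47.9 to 52.8, 61.6 to 70.8 and 32.2 to 43.1, and for total RNA changes 43.3 to 46.2 and 62.5 to 65.4 with library sizes alone. The cause of these shifts was not tested.

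In the counts that follow, the share of all genes called in the same direction and fit stands in parentheses. With the length and GC offset, members called were 5 (35.7%) enriched in naive, 3 (21.8%) depleted on dpi 42, 0 (7.31%) and 1 (9.87%) higher in OL on dpi 10 and 42, 2 (8.69%) higher in total RNA on dpi 42, and 1 (3.94%) passing the filtration on dpi 2. With library sizes alone 6 (47.6%) were depleted on dpi 2 and 1 (11.7%) enriched on dpi 10. DESeq2 size factors and the Wald test gave 5 (30.3%) and 5 (31.7%) depleted on dpi 2. The Wald test gave differential OL enrichment of 2 (10.1%) positive and 1 (7.42%) negative on dpi 2 and 1 (5.34%) negative on dpi 42, 5 (11.2%) lower on dpi 42 than on dpi 2, and 2 (4.48%) passing the filtration on dpi 2. With that test and the tissue pool as a block, an alternative chosen after seeing the data, differential OL enrichment was called for 1 (10.4%) positive and 1 (8%) negative on dpi 2 and 1 (6.45%) negative on dpi 42, and 1 (4.27%) passed the filtration on dpi 2. With only the groups compared, 4 (14%), 3 (7.33%) and 3 (10.2%) were higher in OL, 7 (26.1%) and 8 (27.9%) in total RNA on dpi 2 and 10, 1 (2.73%) had negative differential enrichment on dpi 42, and 0 (2.55%) were lower on dpi 42 than on dpi 2.

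Without both libraries of pool 2 of dpi 2, 1 (17.6%) member was lower in OL on dpi 2, 1 (4.54%) had negative differential enrichment there, and 1 (9.94%) was higher on dpi 10 than on dpi 2. Leaving out 1 library at a time gave 2 to 3, 2 to 3, 2 to 2 and 2 to 3 enriched and 4 to 4, 3 to 4, 4 to 5 and 4 to 5 depleted in naive and on dpi 2, 10 and 42, 5 to 7, 3 to 5 and 3 to 6 higher in OL, 0 to 1 lower in OL on dpi 2, 3 to 5, 4 to 5 and 4 to 4 higher in total RNA, differential enrichment of 0 to 1 positive and 0 to 2 negative on dpi 2, 0 to 2 negative on dpi 10, 0 to 1 positive and 0 to 1 negative on dpi 42, 0 to 1 higher and 2 to 4 lower on dpi 10 than on dpi 2, and 2 to 4 lower on dpi 42 than on dpi 2. The 3 called in OL on dpi 10 were without naive OL replicate 2 or dpi 10 OL replicate 2, the 3 on dpi 42 without naive OL replicate 2, and the 2 lower on dpi 10 than on dpi 2 without dpi 2 OL replicate 1. With 1 library left out, the spread is pooled over all groups.

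With the tissue pool as a block, 1 (5.81%) member had negative differential enrichment on dpi 2 and 1 (3.51%) on dpi 42, Bcl2l11 in both, and apart from the enrichment of Bcl2l11 on dpi 2 the block changed no other call of enrichment or differential enrichment. Naive and injured mice share replicate numbers but not tissue, with r of −0.31 to 0.25 between deviations of libraries of the same number, and not every library correlated best with its own number. A block on these numbers gave 4 (16%) and 3 (5.97%) members higher in OL and 7 (26.1%) and 6 (22.4%) in total RNA on dpi 2 and 10. For dpi 42 a block could use only the 4 libraries whose title gives their number, chosen after seeing the data, and gave 2 (6.15%) higher in OL than naive and 1 (2.67%) lower than on dpi 2. Hrk had 0 to 56 counts in OL libraries, and which size of change could be called for the scarce members was not tested.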
